A study of Mus musculus with 32 samples.

Results

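The nuclear genes of oxidative phosphorylation were followed in the mouse hippocampus, the brain region that new memories depend on. Members were the array probes whose gene symbol belongs to the Ndufa, Ndufb, Ndufc, Ndufs, Ndufv, Sdha to Sdhd, Uqcr, Cox4 to Cox8 (without Cox6a2) or Atp5 names and whose signal was detected on at least 3 arrays at a detection p under 0.05. Of 106 probes with such symbols 96 met the detection rule, out of 25697 probes on the array and 14745 that met the same rule. The 96 probes stood for 78 of the 84 genes so named, out of 10308 genes with a tested probe. Complex I had 47 probes for 37 genes, complex II 6 for 3, complex III 8 for 7, complex IV 17 for 15 and complex V 18 for 16. The names also brought in 5 assembly factors of complex I (6 probes), the pseudogene Ndufs5-ps and Cox7a2l, a factor that joins complexes III and IV. Ndufa4, once counted with complex I, was placed in complex IV. Of the members, 91 probes were detected on all 32 arrays and 5 on fewer, the fewest being 13 arrays. The 10 probes left out, for Cox4i2, Cox6b2, Cox7b2, Cox8c, Ndufaf7, Ndufb11, Ndufs1 and Uqcrq, were detected on 0 arrays. Cox6b2 and Ndufaf7 kept another probe.

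Oxidative phosphorylation makes most of the ATP of neurons. Complex I takes electrons from NADH and complex II from succinate, ubiquinol carries them to complex III, cytochrome c carries them on to complex IV, and complex IV passes them to oxygen. Complexes I, III and IV pump protons across the inner mitochondrial membrane, and complex V, the ATP synthase, lets them flow back to make ATP. Most subunits are encoded in the nucleus, while the mitochondrial genome encodes a catalytic or proton-moving set that is not covered here.

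All mice were on the C57BL/6J background and ate chow. The CIAS-/- line lacks the sensor encoded by Nlrp3, the ASC-/- line the adaptor encoded by Pycard and the CASP11-/- line the caspase encoded by Casp4, all parts of inflammasome signalling. Old CIAS-/- (6 arrays), old ASC-/- (6) and old wild type (6) were labelled 21 to 23 months of age, and young CASP11-/- (4), young CIAS-/- (3), young ASC-/- (3) and young wild type (4) were labelled 1 month. The old ASC-/- titles say 23 months and 5 of its 6 age labels say 21 months. With 1 month as the only young age, a difference between old and young does not separate late growth from ageing. The labels give the genotypes without the targeted exons, a Cre or a promoter, and leave open whether each sample was its own animal, so p-values rest on a spread between samples that may be technical only.

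Between 13172 and 13900 probes were detected per array, and the median raw signal ran from 56.2 to 79.0. The lowest correlation between arrays of a group, across probes, was 0.966 in old wild type and at least 0.985 in each other group. Old wild type replicate 6 stood apart. Its striatal marker genes lay 4.26 log2 units above their mean over all arrays and its hippocampal markers lay at -2.11, so results are also given without it. The Y-linked gene Eif2s3y was at least 9.12 log2 units on every old CIAS-/- and 9.29 on every old ASC-/- array, but ranged from 4.43 to 9.68 among old wild type arrays and from 4.41 to 9.81 among young wild type arrays, so the sexes were not balanced between these groups. On 1 old CIAS-/- array the sex-linked transcript Xist was high as well, at 7.76, against at most 5.38 in old ASC-/-. Eif2s3y ranged from 4.44 to 9.88 in young ASC-/- and from 4.33 to 9.97 in young CASP11-/-. In young CIAS-/- it was at least 9.42. The ASC-/- age effect, and its interaction with genotype, thus also carry a difference in the mix of sexes.

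Promoters of 6 members are shown, taken from the genes named below and not covering all that were called. They are the RefSeq sequences of the 250 bases before the annotated start, on GRCm38.p6, written in the gene's own direction. Capitals mark matches of 5 motifs known from genes of this pathway, on either strand. The motifs were NRF1 (GCGCA, any base, then GCGC), YY1 (AANATGGCG), the ETS motif (CCGGAAG), ERR (AAGGTCA) and CRE (TGACGTCA). The search also covered the 50 bases after the start, which are not printed. The window of Uqcr11 lay at chr10:80406822-80407071 on the minus strand, that of Ndufb2 at chr6:39592315-39592564 on the plus strand and that of Atp5e at chr2:174464102-174464351 on the minus strand. The window of Sdhd lay at chr9:50603850-50604099, that of Ndufb4 at chr16:37654369-37654618 and that of Cox8b at chr7:140900447-140900696, all on the minus strand.
Uqcr11: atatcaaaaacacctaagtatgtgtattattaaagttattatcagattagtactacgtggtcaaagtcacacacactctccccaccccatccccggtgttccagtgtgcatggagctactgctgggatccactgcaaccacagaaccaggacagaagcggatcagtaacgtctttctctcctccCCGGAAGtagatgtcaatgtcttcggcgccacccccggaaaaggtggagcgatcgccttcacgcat
Ndufb2: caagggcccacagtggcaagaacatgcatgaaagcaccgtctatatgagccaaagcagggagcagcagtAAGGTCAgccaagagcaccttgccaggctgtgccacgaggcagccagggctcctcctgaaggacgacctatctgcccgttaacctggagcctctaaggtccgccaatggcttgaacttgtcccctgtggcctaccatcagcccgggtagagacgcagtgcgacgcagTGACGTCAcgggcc
Atp5e: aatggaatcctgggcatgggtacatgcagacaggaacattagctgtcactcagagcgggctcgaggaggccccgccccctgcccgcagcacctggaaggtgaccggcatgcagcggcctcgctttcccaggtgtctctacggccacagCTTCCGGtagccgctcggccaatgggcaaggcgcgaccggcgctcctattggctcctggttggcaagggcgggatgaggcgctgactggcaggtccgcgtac
Sdhd: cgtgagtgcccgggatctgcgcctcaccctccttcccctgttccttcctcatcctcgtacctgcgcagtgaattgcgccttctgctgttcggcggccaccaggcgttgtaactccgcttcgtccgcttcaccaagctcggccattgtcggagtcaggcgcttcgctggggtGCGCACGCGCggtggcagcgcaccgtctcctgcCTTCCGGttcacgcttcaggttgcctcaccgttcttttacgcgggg
Ndufb4: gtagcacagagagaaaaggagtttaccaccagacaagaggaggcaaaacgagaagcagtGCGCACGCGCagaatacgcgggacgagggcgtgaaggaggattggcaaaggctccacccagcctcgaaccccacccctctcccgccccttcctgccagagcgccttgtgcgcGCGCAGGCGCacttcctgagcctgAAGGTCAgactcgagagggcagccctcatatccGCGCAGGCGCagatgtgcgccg
Cox8b: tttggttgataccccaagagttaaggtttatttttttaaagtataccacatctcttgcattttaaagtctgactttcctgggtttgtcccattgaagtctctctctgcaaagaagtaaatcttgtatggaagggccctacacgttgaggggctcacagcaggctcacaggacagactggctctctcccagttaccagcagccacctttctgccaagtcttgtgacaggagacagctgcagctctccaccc
The printed Ndufb4 stretch held 3 NRF1 matches and 1 ERR match, Sdhd held NRF1 and ETS, Ndufb2 held ERR and CRE, and Uqcr11 and Atp5e held ETS. Cox8b, an isoform typical of muscle, held none of the 5. Of called members not printed, Ndufb5 and Cox7a2 held none either, also after the start. Ndufs4 and Ndufc1 held only a YY1 match after the start, and Ndufb6 held ETS. In the printed windows 0 matches of different motifs overlapped. Of the 78 member genes 68 had a promoter in the table, and 39 of these (57.4%) held at least 1 motif in the 300 bases, against 26.4% of 17491 protein-coding genes. NRF1 matches stood in 23.5% of the members' promoters against 7.17% of all, ETS matches in 25.0% against 12.9%, YY1 in 13.2% against 3.64%, ERR in 10.3% against 4.73% and CRE in 4.41% against 2.54%. Since the motifs were chosen as known from this pathway, a higher share among its members cannot count as a result of these data. The 17491 genes were not limited to those detected here. A match is a run of letters and not a shown binding site.

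Levels of these transcripts differed little between the 7 groups. Each probe was centred on its own mean over the 32 arrays, and the centred log2 values were averaged over the 96 members to a relative level per array. That level was 0.022 ± 0.048 in old CIAS-/-, 0.039 ± 0.053 in old ASC-/- and -0.054 ± 0.036 in old wild type (SD, n = 6 each). It was 0.006 ± 0.026 in young CASP11-/- (SD, n = 4), -0.006 ± 0.027 in young CIAS-/- and -0.031 ± 0.012 in young ASC-/- (SD, n = 3 each), and 0.010 ± 0.033 in young wild type (SD, n = 4). From highest to lowest mean, neighbouring groups differed by less than the larger of their SDs, which sorting 7 means makes likely. The highest, old ASC-/-, and the lowest, old wild type, differed by more than either SD. All 6 old wild type arrays (-0.104 to -0.025) lay below the lowest of the 4 young wild type arrays (-0.013), but young ASC-/- (-0.044 to -0.024) overlapped the old wild type range. Because whole tissue was measured, fewer cells of a type and less RNA per cell cannot be told apart.

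**Figure D1:**
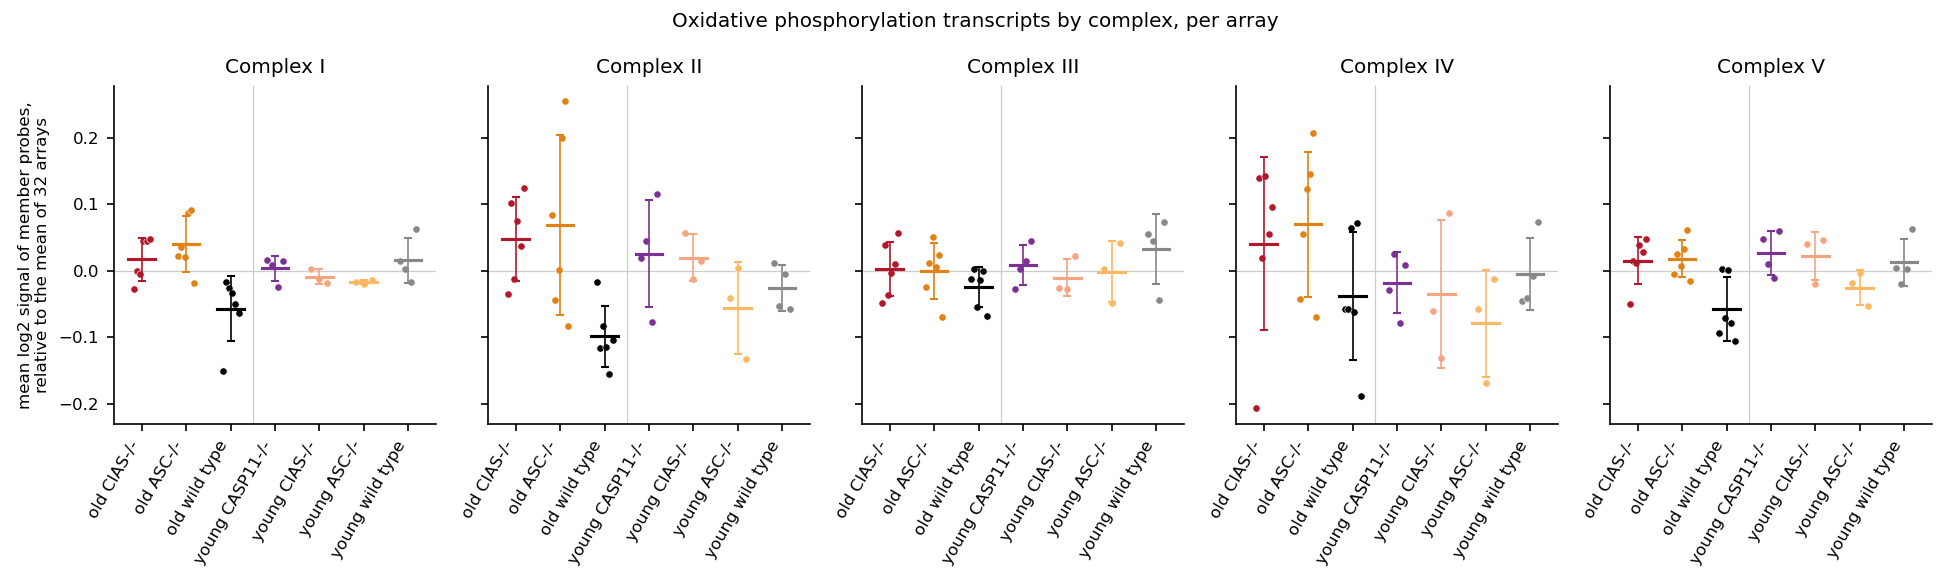
Relative log2 level (each probe centred on its mean over 32 arrays, then averaged over the probes of a complex) on the y axis, by group on the x axis, 1 panel per complex; points are arrays, bars group means and error bars SD. Old wild type had the lowest mean of the 7 groups for complexes I (-0.057), II (-0.099), III (-0.024) and V (-0.058), while for complex IV young ASC-/- was lower (-0.079 against -0.038).

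By complex the differences were small too. Complex I, the NADH dehydrogenase, stood at 0.017 ± 0.032 in old CIAS-/-, 0.040 ± 0.042 in old ASC-/- and -0.057 ± 0.049 in old wild type (SD, n = 6 each), against 0.016 ± 0.034 in young wild type (SD, n = 4). Complex II, which is also an enzyme of the citric acid cycle, stood at 0.048 ± 0.063, 0.069 ± 0.136 and -0.099 ± 0.046 in the same old groups and at -0.026 ± 0.035 in young wild type. Complex III was close together in all groups, at 0.003 ± 0.041, -0.000 ± 0.042 and -0.024 ± 0.030 in the old groups and 0.033 ± 0.052 in young wild type. Complex V stood at 0.015 ± 0.035, 0.018 ± 0.028 and -0.058 ± 0.048 in the old groups and 0.012 ± 0.035 in young wild type. Complex IV, the cytochrome c oxidase, had the widest spread among old CIAS-/- arrays, 0.041 ± 0.130, which fell to 0.022 ± 0.036 without the isoforms Cox6b2, Cox7a1 and Cox8b described further on. These means carry no test.

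Old wild type had slightly less of a few subunits than young wild type. Old against young wild type, 6 of the 96 probes (6.25%), for 5 genes, were called lower and 0 higher by limma at an adjusted p under 0.05, while 2.48% of all 14745 probes were called lower and 2.77% higher. At an unadjusted p under 0.05 the members counted 18 lower and 1 higher. The share of all probes at that p was not counted, here or below, so such counts cannot single out the members. The members' median difference was -0.04 log2 units and 70 of 96 lay below 0. Over all probes the median was -0.01 and 47.3% lay above 0, against 27.1% of the members. In 87 of the 96 probes the difference was under 0.25 log2 units. The groups did not overlap in 5 members, all lower in old wild type, against 2.48% of all probes.

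**Figure D2:**
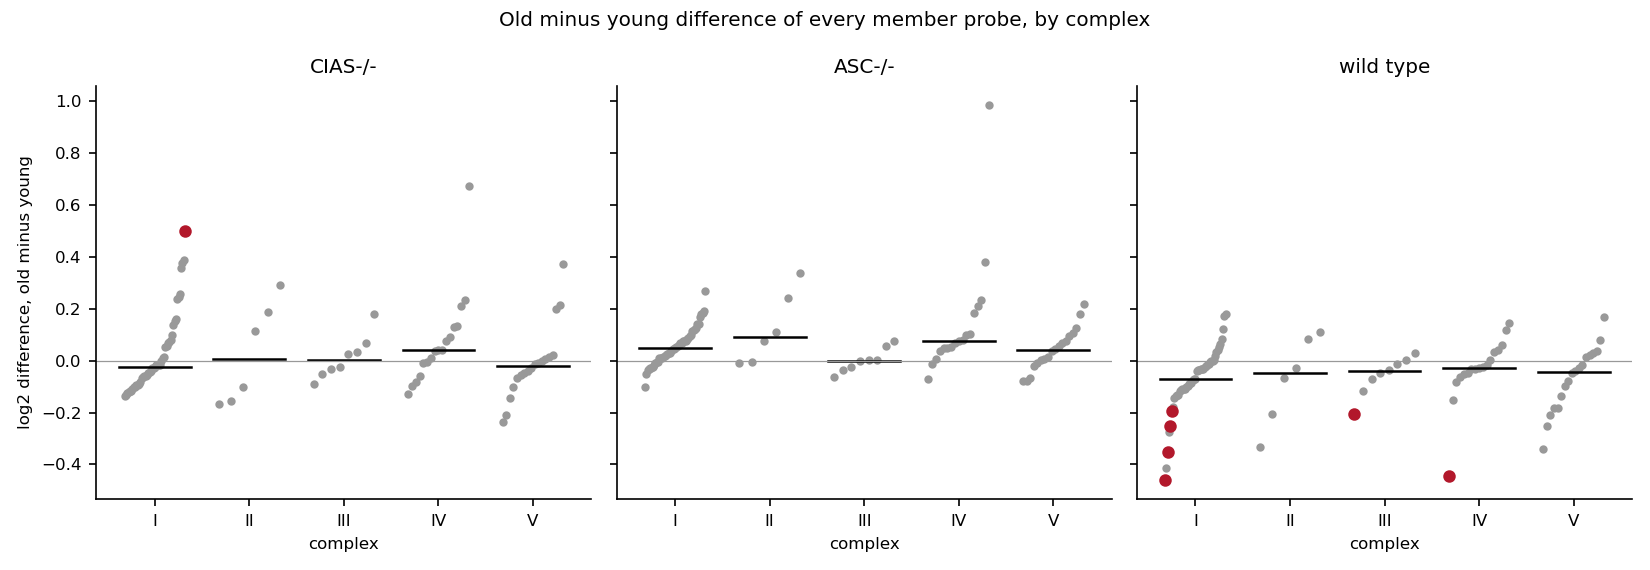
Old minus young difference of each member probe (log2, y axis) by complex (x axis) in CIAS-/-, ASC-/- and wild type; red points passed an adjusted p under 0.05 and the black line is the median. In wild type 6 points are red and the median is -0.04, in CIAS-/- 1 point is red and the median -0.01, and in ASC-/- 0 are red and the median 0.05.

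Uqcr11, a small subunit of complex III, gave the lowest adjusted p. Its signal was 11.90, 11.93 and 11.96 log2 units (lowest, median, highest) in old wild type, against 12.06, 12.12, 12.16 and 12.19 in the 4 young wild type arrays. All 6 old arrays lay below all young ones. The difference was -0.21 (SE 0.048, limma adjusted p = 0.01), and it kept its call when any single array was left out. Uqcr11 fell by 0.19 log2 units (adjusted p = 0.0221) with choroid plexus marker level as a covariate. The other complex III members did not pass, among them the core proteins Uqcrc1 (-0.03) and Uqcrc2 (0.03) and the iron-sulfur protein Uqcrfs1 (-0.07).

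Of complex I, 4 of 35 accessory probes were called lower in old wild type and 0 of 5 core probes were called, a difference that was not tested. Accessory subunits surround the core that carries the electrons and are needed to build or hold it. Ndufb2, a membrane arm subunit, had 7.53, 7.83 and 8.06 log2 units (lowest, median, highest) in old wild type, against 8.19, 8.24, 8.20 and 8.51 in young wild type. The groups did not overlap, and the highest young array, replicate 4, stood apart from its group. The difference was -0.46 (SE 0.119, limma adjusted p = 0.0209), or -0.50 without old wild type replicate 6 (adjusted p = 0.0116). Ndufc1, which sits in the membrane arm too, fell by 0.25 (adjusted p = 0.0314) and 0.19 (adjusted p = 0.0400) on its 2 probes. On the first Ndufc1 probe old wild type had 10.47, 10.60 and 10.76 log2 units (lowest, median, highest), against 10.94, 10.71, 10.84 and 10.97 in young wild type, and the groups overlapped on both probes. The second Ndufc1 probe missed the threshold without replicate 6, at -0.17 (adjusted p = 0.0622). With choroid markers as a covariate both missed it with differences of about the same size, -0.23 (adjusted p = 0.0535) and -0.19 (adjusted p = 0.0558).

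Ndufs4, a subunit whose loss in mice causes a Leigh-like brain disease, had 4 probes that did not move together. On ILMN_2663694 old wild type had 9.41, 9.63 and 9.75 log2 units (lowest, median, highest), against 9.88, 9.83, 10.17 and 9.98 in young wild type, with no overlap. The difference was -0.35 (SE 0.099, limma adjusted p = 0.0341). The other Ndufs4 probes gave -0.02, -0.10 and -0.11 with adjusted p of 0.900, 0.323 and 0.616. Core subunits were near 0: Ndufs3 -0.04, Ndufs7 0.04, Ndufs8 -0.00, Ndufv1 -0.04 and Ndufv2 0.08 log2 units. Among the 35 probes of accessory subunits 29 lay below 0. Ndufb8 missed the threshold at -0.13 (limma adjusted p = 0.068), and Ndufb4 at -0.27 (adjusted p = 0.154).

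In complex IV Cox7a2, the isoform of that subunit found in most tissues, was the only member called. It had 8.18, 8.68 and 8.92 log2 units (lowest, median, highest) in old wild type, against 8.76, 9.02, 9.29 and 9.25 in young wild type. The groups overlapped. The difference was -0.44 (SE 0.120, limma adjusted p = 0.0277). Cox4i1, the regulatory subunit found in most tissues, differed by -0.03 (95% interval -0.15 to 0.09), Cox5a by -0.05 and Cox5b by -0.06. In complex V 0 of 18 probes were called. The catalytic subunit Atp5b gave 0.08 (95% interval -0.03 to 0.19), its partner Atp5a1 -0.21 (adjusted p = 0.470) and the small F1 subunit Atp5e -0.25 (adjusted p = 0.0769). In complex II 0 of 6 were called.

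These wild type counts depended on single arrays. Without old wild type replicate 6, 5 members were called lower and 0 higher, while 6.73% of all probes were called in either direction. That share was not split by direction, so the 5 cannot be set against a share called lower. The count was 1 without young wild type replicate 4, 2 without young replicate 3, 3 without old replicate 1 and 3 without old replicate 5. With a covariate for the sex-linked transcripts Xist and Eif2s3y it was 3, and with only the wild type groups in the fit it was 0. With arrays scaled to a common median in place of quantile normalization 8 were called, and the members' median was -0.10 against -0.01 over all probes. With 1 probe per gene it was 4. Except without old wild type replicate 6, the share of all probes called in such other settings is not given, here or below. These counts therefore do not tell a change in the members from a change in all calls. In aged wild type the astrocyte marker Gfap rose by 0.75 log2 units (limma adjusted p = 0.0156), as 1 of 5 astrocyte markers (list median -0.01). The microglial gene C1qa rose by 0.69, as 1 of 4 microglia markers (list median 0.28). Of 3 thalamic markers 1, Rora, was called higher at 0.36 (adjusted p = 0.0496; list median 0.34), and the 5 striatal markers had a median of 0.72 with 0 called. The mean relative striatal level was 4.26 on old wild type replicate 6 and -0.32 to -0.05 on the group's other arrays. In young wild type it was -0.26 to 0.18. The part of these markers in the result was not tested.

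In the knockouts few members differed between old and young. Old against young ASC-/-, 0 of 96 were called by limma (0.264% of all probes were called in either direction), with 2 higher and 0 lower at an unadjusted p under 0.05 and 0 under each other normalization, filter and left-out array. Their median was 0.05 and 72 of 96 lay above 0. Sdhc, a membrane anchor of complex II, gave 0.34 (adjusted p = 0.682). Old against young CIAS-/-, 1 probe was called higher (0.414% of all probes were), 9 higher and 1 lower at an unadjusted p under 0.05, and the median was -0.01. It was Ndufb9, a membrane arm subunit, with 8.99, 9.14 and 9.25 log2 units (lowest, median, highest) in old CIAS-/-, against 8.69, 8.84 and 8.33 in young CIAS-/-. The groups did not overlap. The difference of Ndufb9 was 0.50 (SE 0.112, limma adjusted p = 0.0268), and the call was lost without young CIAS-/- replicate 1, young CIAS-/- replicate 4 or old CIAS-/- replicate 6. The mean age effect over the 3 genotypes called 0 members (5.52% of all probes were called), with 5 higher and 4 lower at an unadjusted p under 0.05.

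Whether the age effect differed between genotypes was tested as an interaction. For ASC-/- minus wild type, 0 of 96 members and 0 of all probes were called, 16 members were higher and 0 lower at an unadjusted p under 0.05, and 78 of 96 lay above 0. Since all probes were not counted at that unadjusted p, the 16 cannot be called particular to the members. For CIAS-/- minus wild type, 1 member was called higher, against 0.115% of all probes, with 10 higher and 2 lower at an unadjusted p under 0.05. It was Ndufs4 on ILMN_2663694, whose age effect was higher by 0.71 log2 units in CIAS-/- (95% interval 0.41 to 1.01, limma adjusted p = 0.0238). Old CIAS-/- had 9.83 to 10.03 on this probe, young CIAS-/- 9.60, 9.63 and 9.43. The other Ndufs4 probes gave 0.27, 0.12 and -0.00. The interaction count ran from 0 to 6 when single arrays were left out and was 0 without young wild type replicate 3, young wild type replicate 4 or young CIAS-/- replicate 4. It was 5 without old wild type replicate 6, when Ndufs4, Ndufb2, Ndufb8, Ndufb9 and Cox7a2 passed. Calls over all probes rose as well in that setting, to 1.24% in either direction. With each array's median raw signal as a covariate it was 0, and the Ndufs4 difference was then 0.66 (adjusted p = 0.0685).

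Old CIAS-/- hippocampus had more transcript of Atp5e, Sdhd, Ndufb2, Ndufb4, Ndufb5 and Ndufb9 than old wild type. Ndufs4 was called higher on 1 of its 4 probes. These 7 genes gave the 7 of 96 members called higher by limma. With 0 members called lower, 3.12% of all probes were called higher and 4.8% lower. At an unadjusted p under 0.05 the counts were 16 higher and 1 lower. The median was 0.04 against 0.02 over all probes, and 70.8% lay above 0 against 56.0% of all probes. In 5 members the groups did not overlap, all higher in old CIAS-/-, against 1.53% of all probes. The same 7 were called without old wild type replicate 6, when 8.12% of all probes were called in either direction. Calls over all probes were not split by direction in that setting, so the 7 cannot be set against a share called higher.

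**Figure D3:**
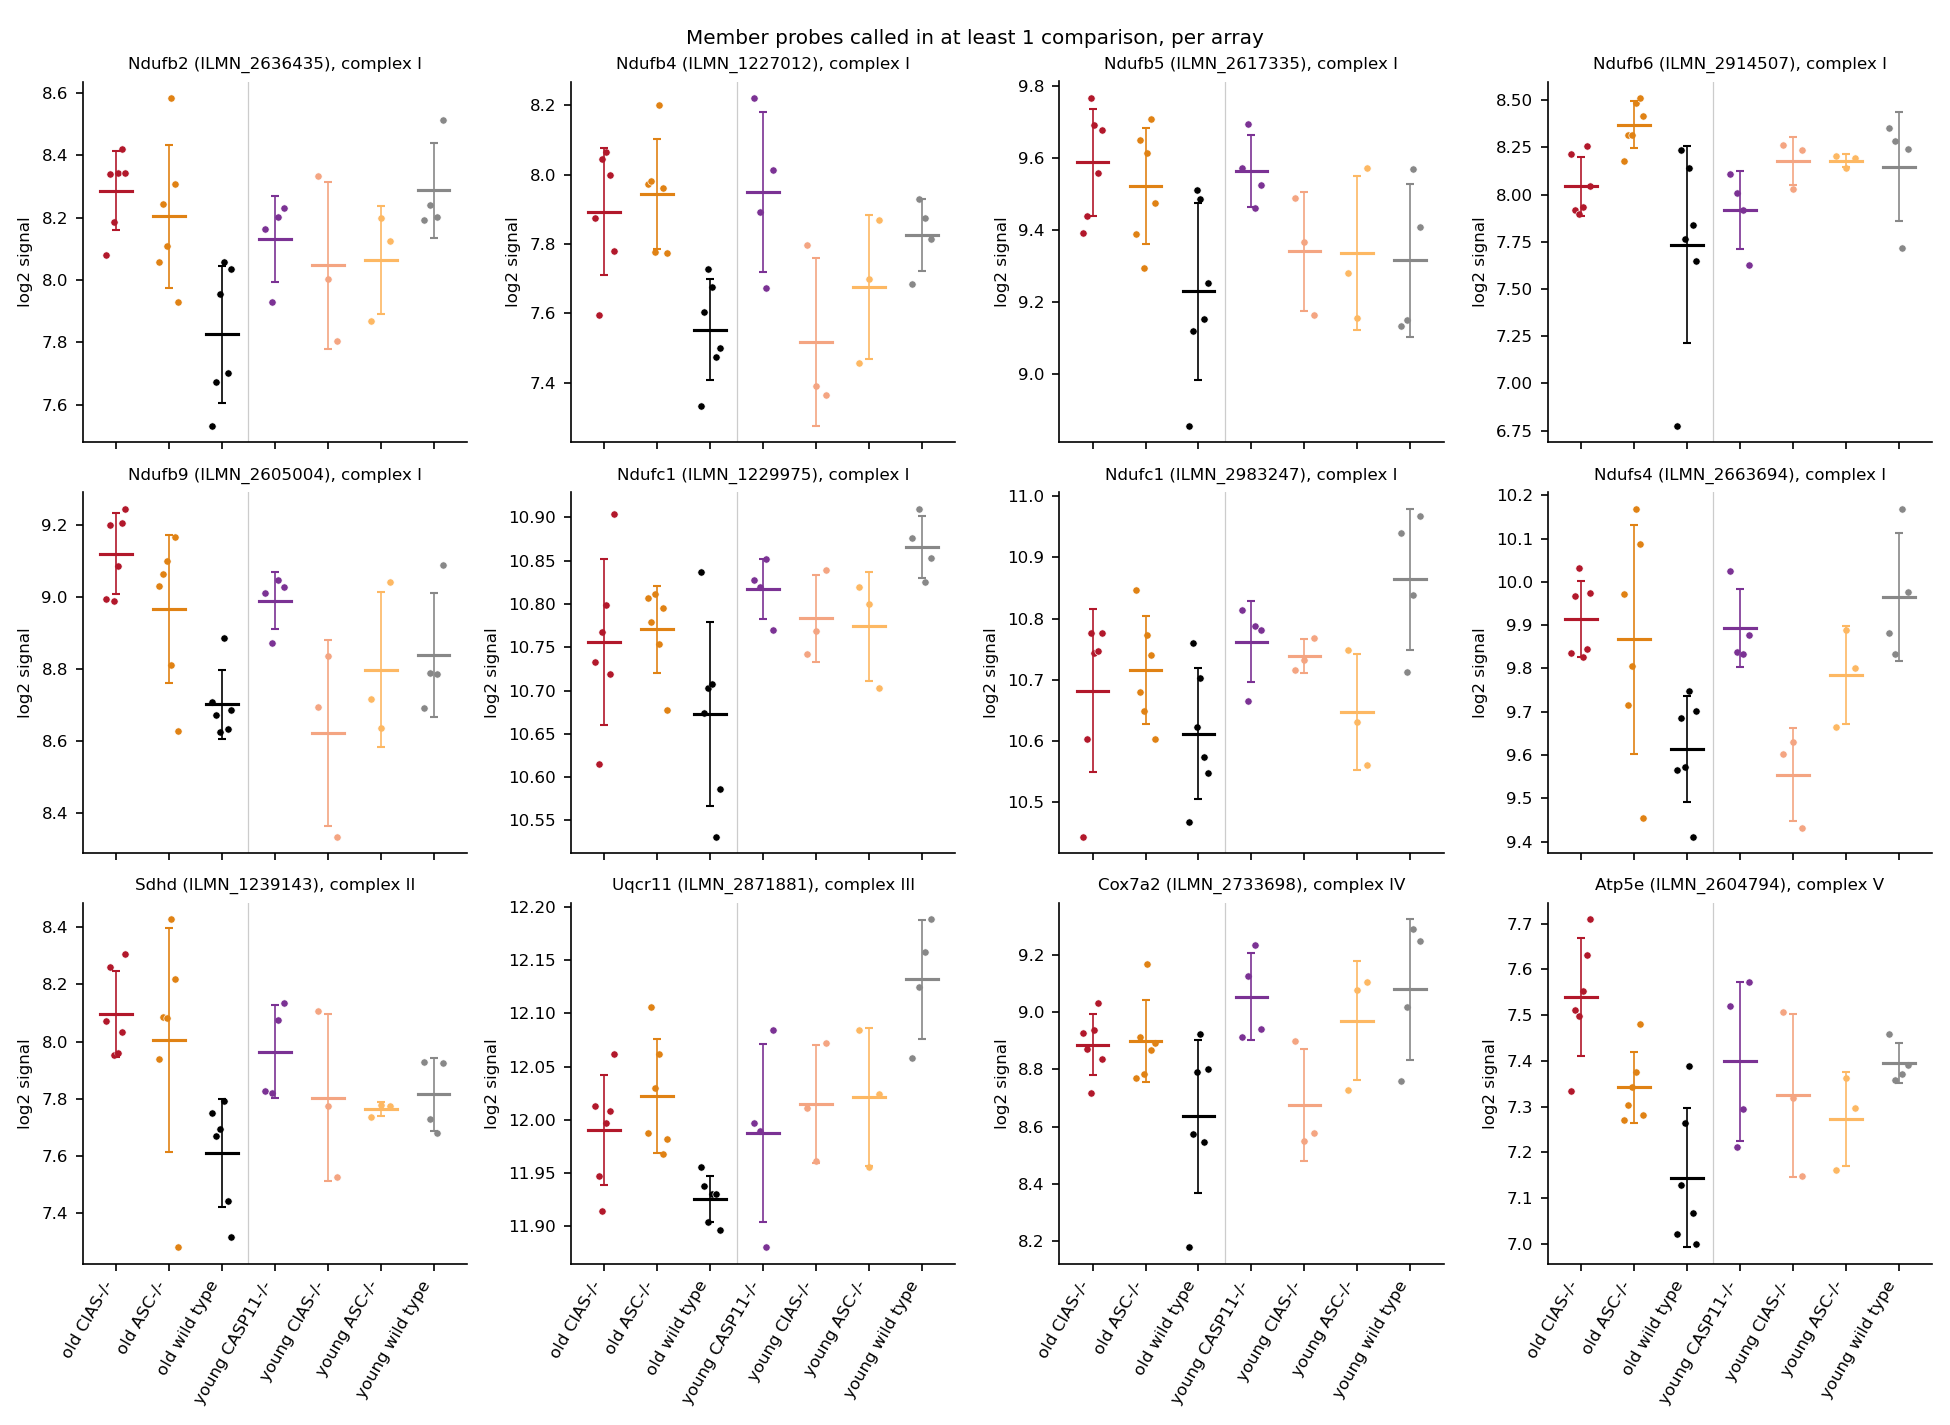
Log2 signal on the y axis by group on the x axis for members called in at least 1 comparison, 1 panel per probe; points are arrays, bars group means and error bars SD. Ndufb9 and Ndufb2 were higher on all 6 old CIAS-/- arrays than on any old wild type array.

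Atp5e, the small epsilon subunit of the F1 part of ATP synthase, gave the lowest adjusted p. It had 7.33, 7.53 and 7.71 log2 units (lowest, median, highest) in old CIAS-/-, against 7.00, 7.10 and 7.39 in old wild type. The groups overlapped slightly. The difference was 0.39 (SE 0.075, limma adjusted p = 0.00126). Other F1 subunits, Atp5b, Atp5c1 and Atp5d, were not called, nor was Atp5a1 at 0.37 (adjusted p = 0.0873).

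Ndufb9 and Ndufb2 of complex I did not overlap between the groups. Ndufb9 had 8.99, 9.14 and 9.25 log2 units (lowest, median, highest) in old CIAS-/-, against 8.63, 8.68 and 8.89 in old wild type, a difference of 0.42 (SE 0.092, limma adjusted p = 0.00452). Ndufb2 had 8.08, 8.34 and 8.42 in old CIAS-/-, against 7.53, 7.83 and 8.06 in old wild type, a difference of 0.46 (SE 0.106, adjusted p = 0.0072). Atp5e, Ndufb9 and Ndufb2 kept their calls when any of the 32 arrays was left out. The promoter of Ndufb2 is the one with ERR and CRE matches above.

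Sdhd, the other membrane anchor of complex II, had 7.95, 8.05 and 8.31 log2 units (lowest, median, highest) in old CIAS-/-, against 7.32, 7.68 and 7.79 in old wild type. The groups did not overlap. The difference was 0.49 (SE 0.128, limma adjusted p = 0.0178), and leaving out 1 of the 32 arrays lost the call. Ndufb5 differed by 0.36 (adjusted p = 0.0296), Ndufb4 by 0.34 (adjusted p = 0.0317) and Ndufs4 by 0.30 on ILMN_2663694 (adjusted p = 0.0329). These last calls of Ndufb5, Ndufb4 and Ndufs4 were each lost on leaving out any of 6 arrays. Ndufs4 gave 0.17, -0.04 and 0.00 on its other probes. The count was 4 without old wild type replicate 1, old CIAS-/- replicate 3 or old CIAS-/- replicate 6.

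Old ASC-/- against old wild type gave fewer calls, all accessory subunits of the Ndufb name. Of 96 members 3 were called higher and 0 lower by limma, while 1.74% of all probes were called higher. At an unadjusted p under 0.05 there were 19 higher and 2 lower. The median was 0.07 against 0.01 over all probes, and 79.2% lay above 0 against 53.9%. This comparison shares its 6 wild type arrays with the one above. Ndufb4 had 7.77, 7.97 and 8.20 log2 units (lowest, median, highest) in old ASC-/-, against 7.33, 7.55 and 7.73 in old wild type. The groups did not overlap, and the difference was 0.39 (SE 0.0997, limma adjusted p = 0.0274). Ndufb2 had 7.93, 8.18 and 8.58 in old ASC-/-, against 7.53, 7.83 and 8.06 in old wild type, with overlap and a difference of 0.38 (SE 0.106, adjusted p = 0.0415). This Ndufb2 call was lost with 7 of the 32 arrays when left out singly and under 4 of 14 other settings, among them the choroid covariate (0.36, adjusted p = 0.0595).

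Ndufb6 differed on 1 of its 2 probes. On ILMN_2914507 it had 8.18, 8.37 and 8.51 log2 units (lowest, median, highest) in old ASC-/-, against 6.77, 7.80 and 8.24 in old wild type, a difference of 0.64 (SE 0.153, limma adjusted p = 0.0205). The groups overlapped, and old wild type spread widely. On the other probe Ndufb6 differed by 0.01 (95% interval -0.10 to 0.12). The old ASC-/- count was 0 without old ASC-/- replicate 5, 1 without replicate 4 and 6 without replicate 6. It was 0 with only the groups compared in the fit. It was 8 with median scaling, and 6 with the median raw signal as a covariate.

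Described as a group after their values were seen, the 10 Ndufb probes for 9 genes had a median of 0.19 in old CIAS-/- and 0.20 in old ASC-/- against old wild type, with 4 and 3 called. In old against young wild type all 10 lay below 0, with a median of -0.12 and 1 called. The 5 core probes of complex I had medians of 0.01 and 0.03 against old wild type and -0.00 for wild type age, with 0 called in each. The difference between Ndufb and core subunits was not tested. Old CIAS-/- against old ASC-/- called 0 of 96 members by limma and 0.0339% of all probes, with 2 members higher and 4 lower at an unadjusted p under 0.05. The smallest adjusted p there was 0.662, for Atp5e at 0.20 (95% interval 0.04 to 0.35).

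Cell type markers also moved in the old comparisons. In old CIAS-/- against old wild type the astrocyte markers Aqp4 (-0.70) and Gfap (-0.57) were called lower, 2 of 5. So were the microglia markers Cx3cr1 (-0.92) and C1qa (-0.28), 2 of 4, the oligodendrocyte markers Mog (-0.72) and Cldn11 (-0.43), 2 of 5, and the neuronal Syt1 (-0.48), 1 of 3. List medians were -0.04 for astrocyte, -0.12 for microglia, -0.44 for oligodendrocyte and 0.14 for neuron markers. In old ASC-/- Cx3cr1 (-0.55), C1qa (-0.29), Mog (-0.68) and Syt1 (-0.35) were called lower and the hippocampal marker Neurod6 (0.59) higher. There the list medians were -0.12 for microglia (2 of 4 called) and -0.34 for oligodendrocyte markers (1 of 5). They were 0.12 for neuron (1 of 3) and 0.56 for hippocampal markers (1 of 5). The mean relative hippocampal level was -2.11 on old wild type replicate 6 and -0.04 to 0.15 on the other old wild type arrays. The part of these markers in the member results was not tested. Cox6a2, a muscle-type isoform that the member rule leaves out, was called lower in old ASC-/- at -1.06.

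Among young mice 0 members were called in any knockout. Young CASP11-/- against young wild type called 0 of 96 by limma, while 2.63% of all probes were called in either direction, and 2 members were higher and 7 lower at an unadjusted p under 0.05. The smallest adjusted p was 0.0899, for the accessory subunit Ndufb8, with 12.59, 12.65, 12.59 and 12.58 log2 units in CASP11-/-, against 12.70, 12.74, 12.79 and 12.78 in young wild type. All CASP11-/- arrays lay below all wild type arrays, by 0.15 on average. In 5 members the CASP11-/- arrays all lay lower, against 7.22% of all probes, and in 93 of 96 the difference was under 0.25. Young ASC-/- called 0 members (0.00678% of all probes), with 1 higher and 4 lower at an unadjusted p under 0.05. Young CIAS-/- called 0 members and 0 of all probes, with 2 higher and 5 lower. Array weights gave 2 calls in CASP11-/-, and 3 other settings and the unfiltered data gave 1 each.

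Regulators of mitochondrial biogenesis came from a list of genes known to control it. Of these, Ppargc1a and Prkaa2 were called lower in young CASP11-/-. Ppargc1a encodes PGC-1alpha, a coactivator of several factors that bind the motifs above. It had 7.39, 7.34, 7.21 and 7.56 log2 units in young CASP11-/-, against 9.35, 9.38, 9.41 and 9.55 in young wild type. The groups were far apart, and the difference was -2.04 (SE 0.258, limma adjusted p = 1.2e-05). Prkaa2, the catalytic alpha2 subunit of the energy sensor AMPK, had 5.04, 5.22, 5.57 and 5.40 in CASP11-/-, against 6.52, 6.59, 6.78 and 6.73 in young wild type. It differed by -1.34 (SE 0.259, limma adjusted p = 0.00263), with no overlap. The values are those of its brighter probe, ILMN_1227113; its other probe, ILMN_2803138, gave -0.42 and was not called (adjusted p = 0.136). Ppargc1a and the brighter Prkaa2 probe kept these calls under each of 32 left-out arrays and each of 14 other settings.

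**Figure D4:**
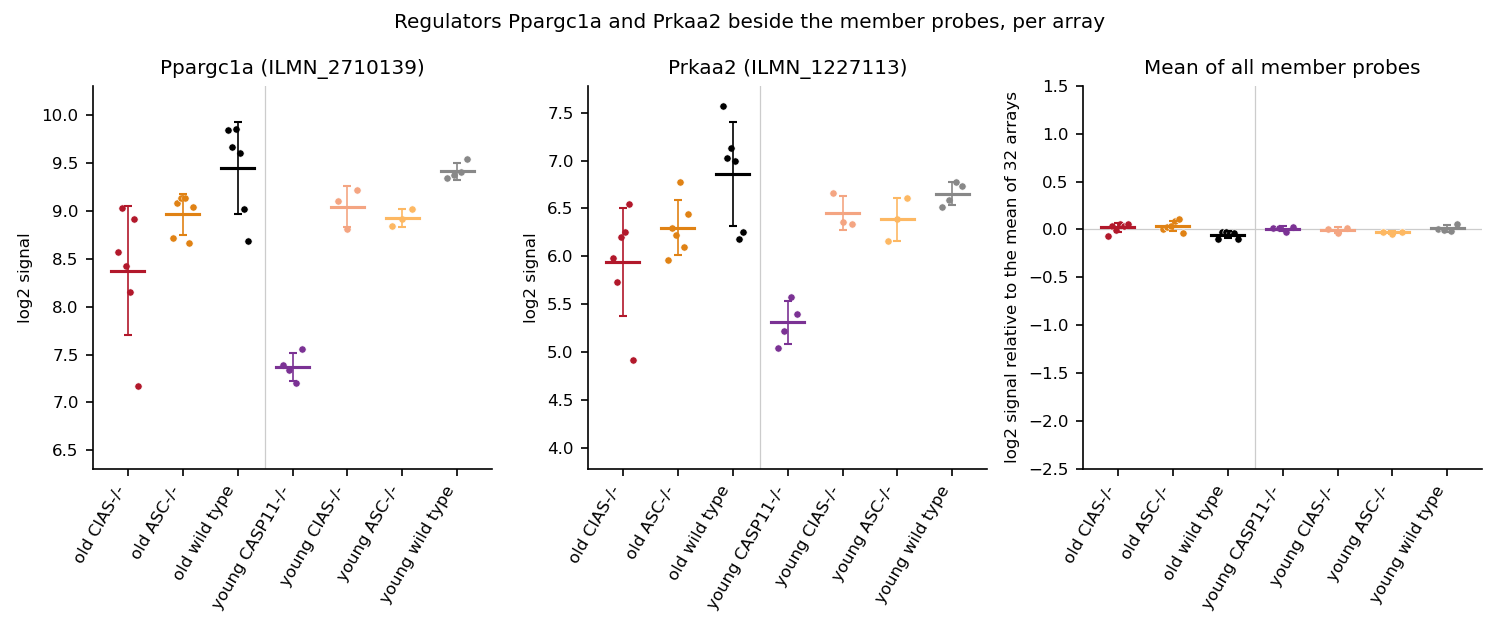
Log2 signal of Ppargc1a and Prkaa2 and the mean log2 signal of all 96 member probes (y axes of equal height) by group on the x axis; points are arrays, bars means and error bars SD. Young CASP11-/- arrays lie at 7.21 to 7.56 for Ppargc1a, below every young wild type array, while the members' mean stays within -0.054 to 0.039 of its overall level in each group.

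The same genes were lower in old CIAS-/-. Ppargc1a had 7.17, 8.50 and 9.03 log2 units (lowest, median, highest) in old CIAS-/-, against 8.69, 9.63 and 9.86 in old wild type, a difference of -1.07 (SE 0.211, limma adjusted p = 0.00174) and of -1.22 without old wild type replicate 6. Prkaa2 had 4.92, 6.09 and 6.54 in old CIAS-/-, against 6.18, 7.01 and 7.57 in old wild type, a difference of -0.92 (SE 0.211, adjusted p = 0.00677). Its other probe gave -0.53 (SE 0.121, adjusted p = 0.0068). The groups overlapped for both, with old CIAS-/- replicate 6 the lowest array and old wild type replicates 5 and 6 the lowest of their group. In old ASC-/- Ppargc1a gave -0.48 (adjusted p = 0.181) and Prkaa2 -0.56 (adjusted p = 0.122). In young ASC-/- and young CIAS-/- Ppargc1a gave -0.49 and -0.37 against young wild type, neither called. The age effects of Ppargc1a, 0.03 in wild type and -0.67 in CIAS-/-, were not called either.

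Of the biogenesis list 16 of 19 genes were measured. In CASP11-/- and in old CIAS-/- the list had 2 called lower and 0 higher each, Ppargc1a and Prkaa2 both times, with list medians of -0.04 in CASP11-/- and 0.01 in old CIAS-/-. The transcription factors Nrf1, Gabpa and Esrra and the mitochondrial DNA factor Tfam were not called in either comparison. Tfam gave -0.08 in CASP11-/- and -0.05 in old CIAS-/-. In the mean age effect Creb1, the CRE-binding factor, was called lower by limma at -0.21 (adjusted p = 0.0293) and Polg, the mitochondrial DNA polymerase, higher at 0.17 (adjusted p = 0.0451). The Polg call was lost with 21 of the 32 arrays when left out singly and under 8 of 14 other settings, and that of Creb1 with 5 arrays and under 2 settings. In the same mean age effect 4 of 5 oligodendrocyte markers were called lower (list median -0.41). Called higher were 2 of 4 microglia markers (list median 0.21) and 1 of 5 astrocyte markers, Gfap (list median -0.02). Their part was not tested. In CASP11-/- the microglial Cx3cr1 (-1.07), 1 of 4 microglia markers, and the neuronal Syt1 (-0.47), 1 of 3 neuron markers, were also called lower. The list medians lay above 0 there, at 0.20 for microglia and 0.03 for neuron markers. The part of these markers was not tested.

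Other genes of the pathway gave few calls. Of the assembly factors of complexes II to V, 25 of 29 were measured. Cox16, needed to build complex IV, had 4.72, 4.87 and 5.01 log2 units (lowest, median, highest) in old CIAS-/-, against 5.09, 5.20 and 5.31 in old wild type. It differed by -0.33 with no overlap (limma adjusted p = 0.00429), and by 0.28 between old and young wild type (adjusted p = 0.0353). The Cox16 probe was dim, detected on 15 arrays. Cox11, needed to place copper in complex IV, was higher by 0.42 in old CIAS-/- (adjusted p = 0.0203). Atpaf2, an assembly factor of the F1 part, was higher by 0.33 in old ASC-/- (adjusted p = 0.0184) but by 0.06 on its other probe. Complex I assembly factors (10 of 13 measured) gave 0 calls in each of these comparisons.

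Feeder and defence pathways also gave few calls. Of the citric acid cycle 17 of 19 genes were measured, and Idh2, the mitochondrial isocitrate dehydrogenase, was called in old CIAS-/-, with 9.13, 9.58 and 9.77 log2 units (lowest, median, highest) against 8.94, 9.03 and 9.35 in old wild type, a difference of 0.47 (limma adjusted p = 0.0135). Of 8 measured of 11 antioxidant and uncoupling genes, Glrx2, a mitochondrial glutaredoxin, rose by 0.34 in old CIAS-/- (adjusted p = 0.0015) on its brightest probe and differed by 0.00 and -0.05 on its others. Of 13 measured of 17 glycolysis genes, Ldha, a lactate dehydrogenase subunit, fell by 0.20 in old against young wild type (adjusted p = 0.0287). Of 14 measured of 18 import and carrier genes, Tomm7 of the outer membrane pore was lower in CASP11-/- at -0.24 (adjusted p = 0.0256). Genes for other entries of electrons, 7 of 8 measured, gave 0 calls in these comparisons.

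Most members varied little from array to array. The SD over the 32 arrays had a median of 0.112 log2 units, and 3 isoforms of complex IV stood out for what they followed. Cox8b and Cox7a1 are isoforms typical of heart and skeletal muscle, and Cox6b2 is one known from testis. Cox8b had an SD of 0.99, the next member 0.33. It had 5.29, 7.78 and 8.47 log2 units (lowest, median, highest) in old CIAS-/-, 6.41, 7.87 and 8.90 in old ASC-/- and 5.64, 7.10 and 8.70 in old wild type. In young arrays Cox8b had 6.71, 6.67, 5.81 and 6.75 in CASP11-/-, 6.46, 5.84 and 7.99 in CIAS-/-, 6.55, 5.53 and 8.00 in ASC-/- and 6.93, 7.31, 6.75 and 7.58 in wild type. All groups overlapped, and Cox8b was called in 0 comparisons.

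**Figure D5:**
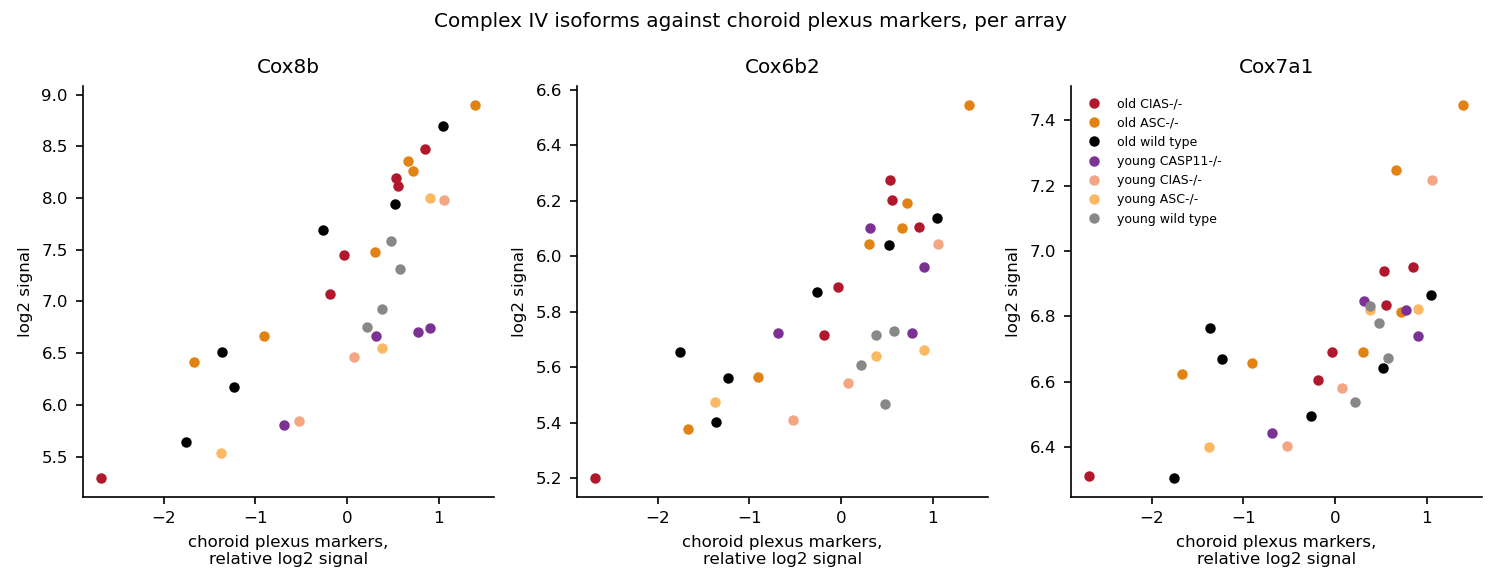
Log2 signal of Cox8b, Cox6b2 and Cox7a1 (y axes) against the relative log2 level of the choroid plexus markers Ttr, Kl, Folr1 and Clic6 (x axis), 1 point per array, coloured by group. The points of Cox8b run from 5.29 at a marker level of -2.68 (old CIAS-/- replicate 1) to 8.90 in old ASC-/-, and all 3 isoforms climb with the markers.

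These 3 isoforms followed markers of the choroid plexus, the tissue that makes cerebrospinal fluid and lies against the hippocampus. The mean relative level of Ttr, Kl, Folr1 and Clic6 ran from -2.68 to 0.85 in old CIAS-/-, -1.67 to 1.40 in old ASC-/-, -1.76 to 1.04 in old wild type and 0.21 to 0.58 in young wild type. After subtracting group means, Cox8b correlated with it over the 32 arrays at r = 0.96 and rho = 0.96, Cox6b2 at r = 0.88 and rho = 0.83 and Cox7a1 at r = 0.77 and rho = 0.76. The permutation p of r was 1e-05 for each, the smallest that 100000 resamples can give, with a Benjamini-Hochberg adjusted p of 0.00064 over 192 relations. Those of rho were 1e-05, 1e-05 and 3e-05, adjusted 0.00096, 0.00096 and 0.0014. Without the 2 arrays farthest from the median, r was 0.95 for Cox8b, 0.82 for Cox6b2 and 0.72 for Cox7a1. These were the 3 of 96 members that passed, and the median r of the members was 0.15. The measure was chosen after the data were seen.

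The same was done with each array's median raw signal. Here 5 of 96 members passed: Ndufs6 (r = -0.76), Cox7a2 (0.62), Ndufb2 (0.58), Ndufs4 on ILMN_2900025 (0.54) and Atp5h (0.54). With that signal as a covariate Ndufb2 still differed by -0.41 between old and young wild type (limma adjusted p = 0.0173) and Cox7a2 by -0.39 (adjusted p = 0.0212).

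Where a gene had several member probes, they did not always go the same way. Of 13 such genes, all probes had the same sign in 9 for old against young wild type, in 7 for old CIAS-/- and in 8 for old ASC-/- against old wild type. Ndufc1 was the only one of the 13 called on every probe, in old against young wild type. Which transcript variants each probe of Ndufs4 and Ndufb6 reads was not analysed here.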

How the data were processed

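Total RNA of hippocampus was labelled with biotin and read on Illumina bead arrays, each sample on its own array, per the labels' protocols. The deposited table gives an intensity per probe and array on a linear scale, not normalized between arrays, with a detection p-value beside each, per the file headers. The submitters' processing notes name GenomeStudio, with no version in the sources used here. Another deposited table holds intensity values normalized by a method that the sources used here do not name. It served as an alternative only, with values under 16 set to 16 before log2 was taken.

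From the deposited intensities limma 3.58.1 in R 4.3.3 computed log2 signals with neqc, which estimates the negative controls behind its normexp background step through the detection p-values, adds an offset of 16 and quantile-normalizes. Probes with a detection p under 0.05 on at least 3 arrays were kept (14745). The offset understates differences of dim probes, and no probe's level was set against that of another. A single limma fit with 7 group means on the 32 arrays (25 residual and 4.38 prior degrees of freedom) gave 12 comparisons as log2 differences. Tests were 2-sided and p-values were adjusted by Benjamini-Hochberg over all 14745 probes, with calls at an adjusted p under 0.05. The number of arrays limits the precision.

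The members, gene lists and tests were chosen with earlier results of these data known. The genes named in the text are the members called in each comparison, those nearest to being called, the main subunits of each complex, and the called genes of the lists. List genes were read on their brightest probe. Of the 78 member genes all 78 matched the RefSeq gene table. Alternatives were other normalizations, offsets and filters, fits of only the groups compared, trended and robust variance, array weights, 1 probe per gene, a covariate for sex-linked transcripts, the replicate number as a block, and each array left out. Covariates for the median raw signal and for choroid plexus markers, and the correlations with them, were added after seeing the data. Replicate numbers were not taken as a pairing. In 0 of 21 pairs of groups did every same-numbered pair of arrays correlate above 0.1 in its deviations from the group means (r from -0.25 to 0.37). That rule asks it of every pair at once, so it cannot exclude a partial pairing or batch. The method was tested on simulated data.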

Additional observations from a re-analysis of the deposited data

Results flagged for a closer look

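In 120 tests of a group of 4 to 10 arrays for a single array far from the others, 7 values on 6 arrays stood apart, and chance gives about 1 in 20. Old CIAS-/- replicate 1 was low for complex IV at -0.207 (its group's other arrays 0.0189 to 0.142) and for complex V at -0.0504 (others 0.0116 to 0.0472). Old wild type replicate 1 was low for complex I at -0.151 (others -0.0636 to -0.0166). These 3 are relative log2 levels. In log2 signal, Ndufb2 stood at 8.51 on young wild type replicate 4 (others 8.19 to 8.24), Cox7a2 at 9.17 on old ASC-/- replicate 4 (others 8.77 to 8.91), Ndufb9 at 8.89 on old wild type replicate 4 (others 8.63 to 8.71) and Cox8b at 5.81 on young CASP11-/- replicate 3 (others 6.67 to 6.75).

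For 2 members the old and young arrays differed in opposite directions in CIAS-/- and wild type, and 1 of them passed the test of that difference. Ndufs4 on ILMN_2663694 differed by 0.36 between old and young in CIAS-/- and by -0.35 in wild type, without overlap of the arrays in either genotype. The test of that difference gave 0.71 log2 units (limma adjusted p = 0.0238). Ndufb8 differed by 0.14 in CIAS-/- and by -0.13 in wild type, again without overlap. The test of this difference missed the threshold (0.27, adjusted p = 0.0537).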

How the results depend on the processing

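Counts of members called are given here where another setting moved them by more than 1.5 times. They come without the share of all probes called in the same setting, so they cannot single out the members. For the age effect of CIAS-/- minus wild type, the 1 call became 3 with quantile normalization without background correction, 3 with an offset of 50, 2 with median scaling, 2 with the deposited normalized values, 2 with no filter, 2 with the strict filter, 6 with array weights, 3 with trended and robust variance and 0 with the raw signal covariate. For age in CIAS-/-, the 1 call became 0 with the replicate block, 3 with array weights, 0 with only the groups compared, 0 with the raw signal covariate and 2 with the choroid covariate. For age in wild type, the 6 became 3 with the replicate block, 3 with the sex-linked covariate and 0 with only the groups compared. For old ASC-/- against old wild type, the 3 became 8 with median scaling, 1 with array weights, 0 with only the groups compared, 6 with the raw signal covariate. For old CIAS-/- against old wild type, the 7 became 4 with no filter. The 0 calls of the mean age effect became 1 with an offset of 50, 1 with median scaling, 1 with array weights and 3 with the choroid covariate. The 0 of age in ASC-/- became 1 with the choroid covariate, the 0 of young CIAS-/- 1 with no filter, and the 0 of young CASP11-/- 1 with quantile normalization without background, an offset of 50, no filter, or trended and robust variance, and 2 with array weights. The cause was not tested, except that fits of only the groups compared hold fewer arrays. The replicate block changed no other count by over 1.5 times, and the labels do not say that a number marks a shared animal or batch.

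Leaving out each array in turn gave counts from 1 to 7 for age in wild type, 0 to 1 for age in CIAS-/-, 0 to 2 for the mean age effect, 0 to 6 for old ASC-/- and 4 to 8 for old CIAS-/- against old wild type, and 0 to 6 for the CIAS-/- interaction, and 0 throughout for the other comparisons. In the comparisons where they were called, no member or list gene turned its direction under any setting run. Members near background, such as Sdhb on its dimmest probe, detected on 13 arrays, can show only large differences.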
